A study of Equus caballus with 2 samples.

Results

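Chromosome 6 of the horse between 7000001 and 8000000 was examined as a window of 1 Mb in which the methylation of an equine sarcoid was lower than that of skin. Its members were the 844 CpGs in it that, with strands summed, reached 10 reads in each of the libraries, of 877053 in the genome that met this limit. The skin group was 1 library of skin taken away from the tumour (the control), and the sarcoid group was 1 library of the tumour tissue. Both came from horse 1, so there was no replicate, and neither age, sex nor treatment of the animal was given in the labels. Sarcoids are tumours of dermal fibroblasts in horses, linked to infection with bovine papillomavirus. DNA methylation was read by reduced representation bisulfite sequencing (RRBS), in which the enzyme MspI cuts DNA at its sites, short fragments are kept and unmethylated cytosines are converted, so that a cytosine still read as C counts as methylated.

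The window was chosen by the measured difference in its mean methylation between these 2 libraries, and its members were selected on position and coverage. Differences between the libraries in it are therefore descriptions and carry no test. They are given as sarcoid minus skin, in percentage points. Each level of a bulk tissue is an average over its cells, so another mixture of cells and another level within cells cannot be told apart. The files hold methylation only, and the labelled tissues could not be checked against cell markers. Genes, CpG islands and repeats at these positions are not named, because the build of the files was not given and no annotation of it was used here. Positions are those of the deposited files.

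Cytosine methylation in mammals is found mainly at CpGs, and most CpGs of the genome are methylated in most cells. CpG-dense stretches are the usual exception, since many of them lie at promoters and are kept free of methylation. Tumours often combine loss of methylation over long CpG-poor blocks with gain at some CpG-dense sites.

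The 2 libraries held 48650606 reads over cytosines in skin and 35970547 in sarcoid. In the window, 1205 CpGs were listed in either library, of which 165 were listed in 1 library only and 196 were in both with under 10 reads in at least 1. The median coverage of the 844 members was 36 reads in skin (10 to 132) and 33 in sarcoid (10 to 144). Members were unevenly spread. The first 300 kb of the window held 25 of them, and the 200 kb from 7600001 to 7800000 held 455, or 53.9%. The 28 members whose lower coverage was exactly 10 reads had a mean difference of -15.3 points, and the 29 CpGs just below the limit, at 9 reads, one of -5.22 points.

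The mean difference of the window, with each CpG weighted equally, lay in 1 stretch of 200 kb. Over all 844 members the skin library had a mean level of 53.2% and the sarcoid library one of 44.5%, which differed by -8.72 points (95% interval of the mean from counting error -9.41 to -8.03). From 7600001 to 7800000 the 455 CpGs averaged 55.7% in skin and 39.1% in sarcoid, or -16.7 points (-17.6 to -15.7), with a standard deviation over CpGs of 20.8. In the other 800 kb the 389 CpGs averaged 50.3% and 50.9%, and the interval of their difference of 0.577 points, from -0.386 to 1.54, included 0. The direction of this small difference depended on the setting: it was -0.387 points with at least 20 reads per CpG. With reads pooled within each library it was -3.66 points. That value also reflects coverage of CpGs that is unequal between the libraries. The limits of the stretch are multiples of 100 kb and were chosen after the values of such steps had been seen.

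In steps of 100 kb the profile was as follows. The step from 7600001 to 7700000 had means of 62.4% in skin and 43.8% in sarcoid over 234 CpGs. The step from 7700001 to 7800000 had 48.7% and 34.1% over 221 CpGs. These 2 steps differed by -18.6 and -14.6 points. On the side toward the start of the chromosome, the step from 7500001 differed by 2.03 points over 60 CpGs and that from 7400001 by -4.31 points over 55. On the far side, the steps from 7800001 and 7900001 differed by 3.46 points over 114 CpGs and 1.42 points over 116. The steps on either side of these 2 thus had small positive differences. The step from 7300001, with 19 CpGs, stood at 0.294 points. The 3 steps nearest the start held 10, 12 and 3 CpGs and differed by -3.44, -10.2 and -22.6 points, values that rest on few restriction fragments. Signs outside the stretch depended on the setting: the step from 7500001 differed by -2.13 points with at least 20 reads per CpG, and that from 7800001 by -0.804 points where both strands were required and were less than 30 points apart. The 2 steps of the stretch stayed lower in every setting run.

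**Figure D1:**
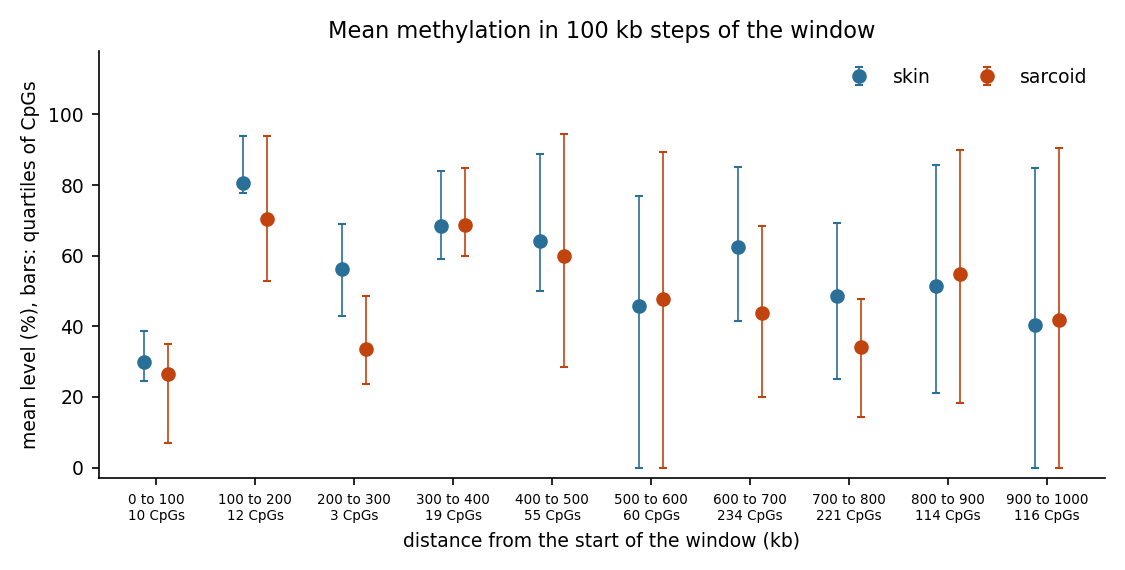
Mean methylation level (%, vertical axis) of member CpGs in skin and in sarcoid for 10 steps of 100 kb, by distance from the start of the window. Points are means over CpGs and bars run from the lower to the upper quartile of CpGs; the steps from 600 to 800 kb show the sarcoid below skin, at 43.8% against 62.4% and 34.1% against 48.7%.

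Counts of single CpGs were divided in the same way, but the stretch was chosen from the means of these same CpGs. The tiles, bins and clusters below are built from them too. In the stretch 345 of 455 members (75.8%) were less methylated in the sarcoid, 101 more methylated and 9 equal. Over the genome 40.2% of CpGs were lower, 36.0% higher and 23.8% equal, and on chromosome 6 outside the window 38.7% were lower. In the rest of the window 154 members were lower, 159 higher and 76 equal. Members at least 25 points lower numbered 184 in the window, 151 of them in the stretch. Those at least 25 points higher numbered 32, of which 4 lay in the stretch. Shares over the genome at this limit alone are not given here. Calls were made by Fisher's exact test on read counts, adjusted over the genome, at q below 0.01 with at least 25 points. By this rule 65 members (7.70%) were called lower, beside 1.89% of all CpGs of the genome and 2.62% of the other CpGs of chromosome 6. Members called higher numbered 9 (1.07%), beside 0.954% in the genome and 1.16% on the rest of the chromosome. Of the 65 called lower 62 lay in the stretch, between 7613532 and 7798044. None of the stretch was called higher (0 of 455 by Fisher's exact test, 4 at an unadjusted p below 0.05). The calls rest on depth: with every CpG thinned to 10 reads 0 were called lower and 0 higher, and 0 in the whole genome. At that depth 53 of the 844 had an unadjusted p below 0.05 by Fisher's exact test, of which 47 were lower. Over the genome 24699 of 877053 CpGs had such a p. The mean difference of the window at that depth was -8.42 points.

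In 1 kb tiles, 125 held at least 3 members, and 81 of these had a lower level in the sarcoid when reads were summed. In the stretch 58 of 67 tiles were lower, and in the rest 23 of 58. A share of lower tiles over the genome is not given here. Tiles called lower numbered 21 (16.8%), beside 4.10% of 103512 tiles of the genome. Of these 16 were among the 67 tiles of the stretch and 5 among the 58 of the rest. Tiles called higher numbered 2 (1.60%), beside 2.28% of the genome, and both lay outside it. The called tile nearest the limit of 25 points differed by -25.1 points and the nearest tile beyond it by -24.9, and 7 tiles lay between -25 and -20 points. Calls of tiles used summed reads, so unequal coverage of the CpGs in a tile enters them. The called tile from 7754001 differed by -25.6 points in summed reads and -12.8 as a mean of its 9 CpGs, of which 0 were called. That from 7627001 differed by -52.5 and -56.9 points.

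**Figure D2:**
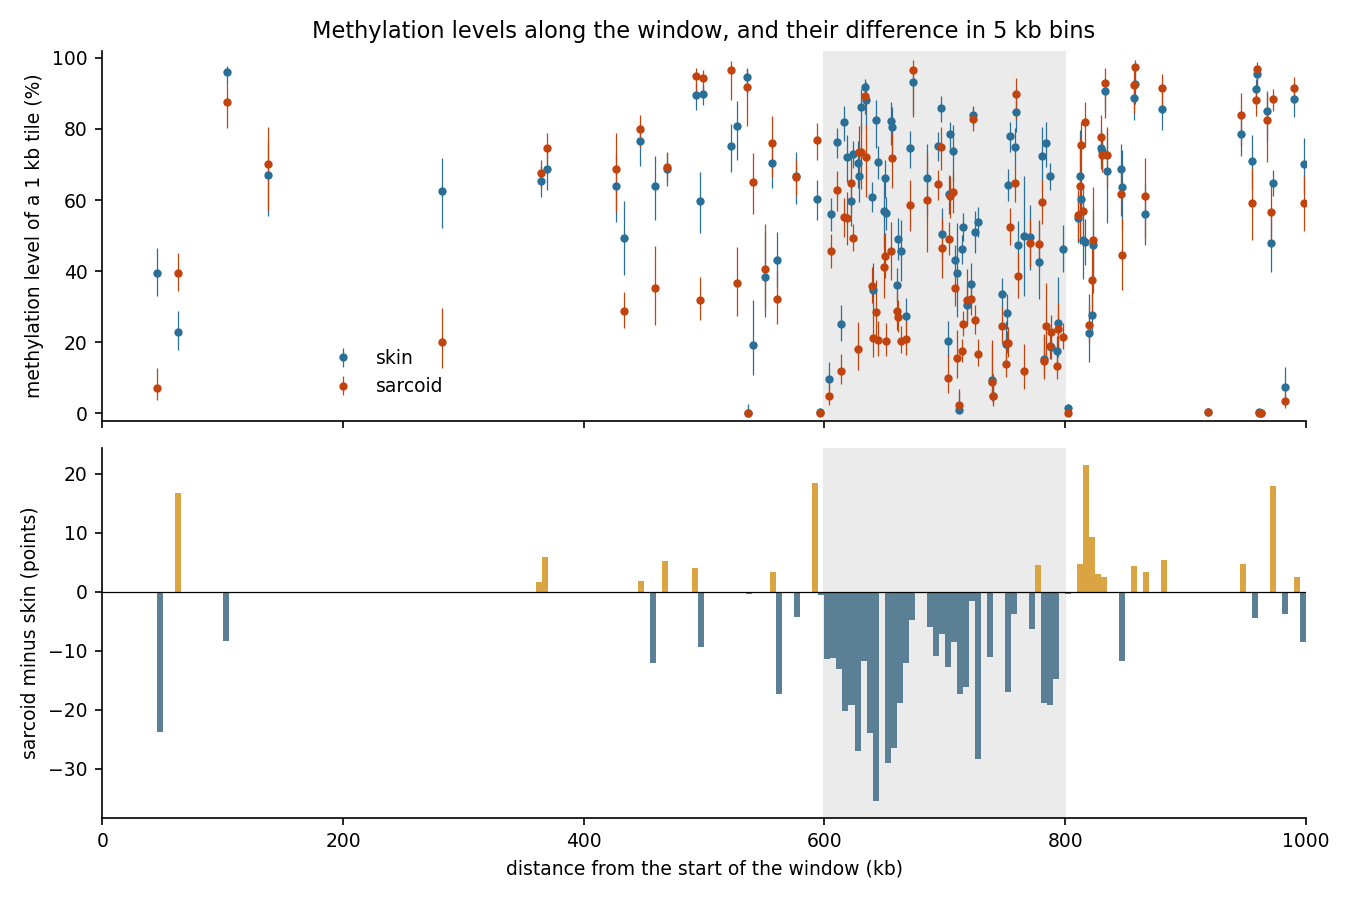
Upper panel: methylation level (%) of 1 kb tiles with at least 3 member CpGs in skin and sarcoid, with Wilson 95% intervals of the summed reads, by distance from the start of the window in kb. Lower panel: mean difference of sarcoid minus skin in points for 5 kb bins with at least 5 members, with the stretch from 600 to 800 kb shaded; 30 of its 31 bins lie below 0.

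In 5 kb steps the stretch was lower almost without a break. Of 31 bins with at least 5 members 30 had their mean below that of skin, and the median was -13.0 points (range -35.5 to 4.62). The exception was the bin from 7775001, at 4.62 points over 5 CpGs. Of 34 such bins in the rest of the window 14 were lower, with a median of 2.16 points (-23.7 to 21.5). On chromosome 6 outside the window 59.3% of 1982 bins were lower and in the genome 56.7% of 53258. With bins of fewer CpGs passed over, every bin was lower from 7595001 to 7775000, a run of 28 bins with 381 CpGs and means of 57.2% in skin and 40.8% in sarcoid. This was the longest run of lower bins in the genome, ahead of 24 bins on chromosomes 7 and 25, and the second longest on chromosome 6 had 15. The window was chosen from the same contrast, so this rank is a description. Bins counted as lower by sign alone. The first bin of the run stood at -0.521 points, with 0.651% in skin and 0.130% in sarcoid. The longest run of higher bins in the genome had 16. With at least 3 or 10 CpGs per bin, or at least 5 or 20 reads per CpG, the run had 26, 27, 38 and 28 bins, and under each of these 4 settings no run in the genome was longer. Its extent changed with the setting. It went from 7595001 to 7740000, 7810000 and 7805000 with 3 CpGs, 5 reads and 20 reads. With 10 CpGs it went from 7495001 to 7805000 and passed over bins of fewer CpGs with differences in both directions. Among these were the bins from 7540001 (45.9 points), 7525001 (-44.4 points) and 7590001 (18.4 points over 5 CpGs). Length of a run depends on how many bins are covered, so a sparsely covered region cannot show one, and run lengths across the genome share the general excess of lower bins.

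Among bins with at least 5 members, the lowest was that from 7640001 to 7645000. It stood at 60.8% in skin and 25.4% in sarcoid over 19 CpGs (-35.5 points) and also held most called CpGs, with 9. Without it the mean difference of the stretch was -15.8 points. The bins from 7650001 (-29.0 points over 22 CpGs), 7725001 (-28.4 over 20) and 7625001 (-27.0 over 13) came next. Those from 7785001 and 7710001, with 6 and 5 called CpGs, differed by -19.2 and -17.4 points, and those from 7715001, 7725001 and 7750001 also held 5 called CpGs. The lowest bins of at least 5 members thus lay close together from 7625001 to 7655000, apart from that from 7725001. Some bins of fewer members stood lower and were spread over the window. They were those from 7145001 (-52.2 points over 2 CpGs), 7525001 (-44.4 over 3), 7730001 (-47.8 over 2) and 7765001 (-38.2 over 3). Bins with 5 or more called CpGs were spread more widely, from 7640001 to 7790000. Of bins with at least 5 members, those with the largest positive differences stood next to the stretch or far from it. They were 21.5 points from 7815001 over 11 CpGs, 18.4 points from 7590001 over 5 CpGs and 17.9 points from 7970001 over 17 CpGs. Of these, the first 2 flank the stretch within 20 kb on either side.

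Since CpGs on 1 restriction fragment share their reads, members were also gathered into clusters wherever neighbours lay within 200 bases. The stretch held 80 clusters of at least 3 CpGs, of which 67 (83.8%) were less methylated in the sarcoid. Their mean difference was -15.8 points with a standard deviation over clusters of 16.9. In the rest of the window 24 of 61 clusters were lower, and their mean was 0.402 points with a standard deviation of 14.6. Of 3805 such clusters on chromosome 6 outside the window 54.9% were lower, with a mean of -1.78 points. Clusters at least 25 points lower made up 25% of those in the stretch, 20 in number, and 4.60% of those on the rest of the chromosome, while no cluster of the stretch (count 0) was 25 points higher. The largest positive difference of a cluster there was 9.23 points. Within a cluster the differences of CpGs had a median standard deviation of 12.4 points, less than the spread between clusters. Lower levels were thus seen at many separate fragments, with clusters between them that differed little.

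**Figure D3:**
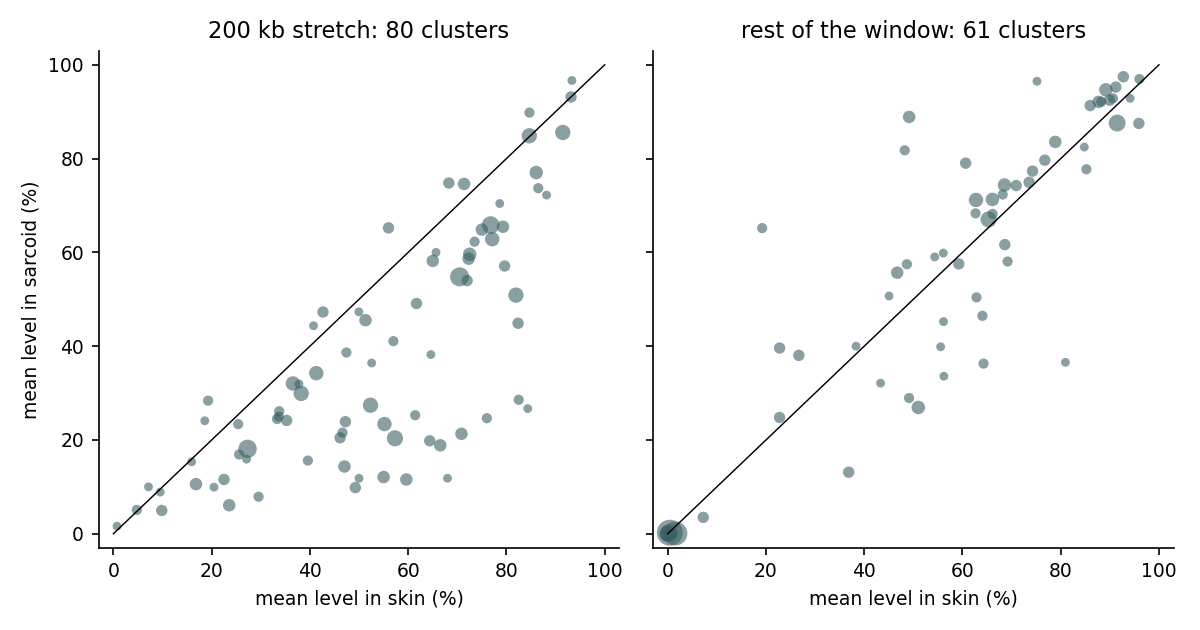
Mean methylation level of each cluster of at least 3 member CpGs in skin (horizontal, %) and in sarcoid (vertical, %), in the 200 kb stretch (left, 80 clusters) and the rest of the window (right, 61 clusters); dot area grows with the number of CpGs and the line marks equal levels. In the stretch 67 clusters lie below the line, and in the rest 24.

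In some of the tiles with the largest differences the CpGs had nearly the same level, and in others they were spread widely. The tile from 7642001 to 7643000 had the largest decrease, from 82.5% in skin (Wilson 95% interval 74.7 to 88.3, 120 reads) to 28.6% in sarcoid over 112 reads. Its 4 CpGs stood at 86.7%, 80%, 83.3% and 80% in skin and at 35.7%, 25%, 28.6% and 25% in sarcoid. They lie within 35 bases and share reads, so they are not separate measurements. The tile from 7627001 went from 70.6% (63.5 to 76.7) to 18.0% (12.2 to 25.8) over 6 CpGs. In skin these ranged from 47.3% to 89.5% and in sarcoid from 8.70% to 35.3%. The tile from 7784001 went from 76.1% to 24.6% over 4 CpGs, with 41 to 45 reads per CpG in skin and 14 to 16 in sarcoid.

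The tile from 7644001 went from 70.8% (65.9 to 75.3, 353 reads) to 20.6% (16.2 to 25.9, 262 reads), with 5 of its 6 CpGs called singly. Its CpG at 7644240 had 92.2% in skin over 64 reads and 20% in sarcoid over 45, and that at 7644281 had 83.3% and 11.6%. Its CpG at 7644207, at the edge of the group, differed least, at 68.6% and 50%. The tile from 7787001 was the most deeply read of these, with 576 and 352 reads, and went from 66.8% (62.9 to 70.6) to 19.0% (15.3 to 23.5). All 6 of its CpGs were called, at 58.9% to 76.7% in skin and 17.1% to 21.1% in sarcoid. The tile from 7752001 went from 64.3% to 19.8%, with 5 of 5 CpGs called, at 58.9% to 68.2% in skin and 18.9% to 20.4% in sarcoid. In both of these tiles the sarcoid level was near 20% at every CpG. Their CpGs lay within 84 and 88 bases, so they share reads. A read over several CpGs enters the sum of a tile more than once, which makes these intervals too narrow, and copies of 1 molecule could not be recognised, so intervals cover counting error only.

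The other 2 of the 8 largest decreases lay outside the stretch. The tile from 7527001 went from 81.0% to 36.6% over 3 CpGs and 84 and 93 reads. The tile from 7282001 went from 62.5% to 20% over 3 CpGs, but its mean of single CpGs was 56.2% and 33.6%, and with CpGs of at least 5 reads it differed by -8.24 points over 5 CpGs in place of -42.5. Coverage of its CpGs was unlike in the libraries, at 13, 40 and 35 reads in skin and 54, 15 and 16 in sarcoid. Among single members, the largest decrease was at 7765115, from 100% over 10 reads in skin (72.2 to 100) to 21.2% over 33 in sarcoid (10.7 to 37.8). The CpG at 7627337 went from 83.8% over 37 reads to 13.0% over 23.

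CpGs and tiles called higher were few and lay outside the stretch. The tile from 7540001 had the largest, from 19.2% (10.8 to 31.9, 52 reads) to 65.2% (56.0 to 73.4, 112 reads) over 4 CpGs, each with 13 reads in skin and 28 in sarcoid and none called singly. The tile from 7816001 went from 48.2% to 82.0% over 4 CpGs, of which 2 were called. This tile lies 16 kb beyond the end of the stretch. Of the 11 CpGs in the tile from 7972001, the first 5 were above 75% in both libraries, and the last 4, from 7972814 to 7972889, went from 32.8% to 51.8% in skin to 75% to 91.4% in sarcoid and were all called. The largest single increase was at 7972862, from 33.7% over 83 reads to 91.4% over 58. The CpGs at 7062637 (23.9% and 76.6%) and 7593160 (47.3% and 89.2%) were also called higher.

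CpG-dense tiles of the window had almost no methylation in either library. Only 2 tiles listed over 20 CpGs. In the tile from 7802001 to 7803000, which lies just past the end of the stretch, 22 CpGs had 15 methylated of 960 reads in skin (1.56%, interval 0.949 to 2.56) and 1 of 1012 in sarcoid (0.0988%, 0.0174 to 0.558). In the tile from 7918001 to 7919000, 26 CpGs had 3 of 937 reads (0.320%) and 3 of 1119 (0.268%). Tiles at or below 20% in both libraries numbered 14, of which 7 were in the stretch, and their differences ranged from -5.60 to 1.36 points. Among them, the tile from 7596001, just before the start of the stretch, had 0.532% in skin over 564 reads and 0.161% in sarcoid over 622. Tiles at or below 1.56% in both libraries thus lay within 4 kb of either limit of the stretch. Those limits are multiples of 100 kb chosen after the values were seen. Inside it, the tile from 7740001 had 4.85% and 5% and that from 7711001 1.10% and 2.46%.

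The difference of the stretch was seen in each class of CpG density present. Density was the number of CpGs listed in either library per 1 kb tile. In tiles listing 5 or fewer CpGs, 116 members of the stretch had means of 56.4% in skin and 38.1% in sarcoid (-18.3 points). In tiles listing 6 to 10, 195 members had 52.9% and 36.3% (-16.6 points), and in tiles listing 11 to 20, 144 members had 59.2% and 43.7% (-15.5 points). The stretch held no denser tile. In the rest of the window the same classes differed by -0.981, 2.70 and 3.75 points, and in the 4 flanking megabases (from 5 to 7 and from 8 to 10 Mb) by -3.69, 1.46 and -0.0973. On chromosome 6 outside the window they differed by -2.06, -1.28 and -1.83 points. Skin levels in the class of 11 to 20 were 59.2% in the stretch and 56.8% in the rest of the window, there over 43 CpGs. They were 32.7% in the flanks and 33.8% on the rest of the chromosome.

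Intermediate levels were common in the stretch already in skin. Members between 20% and 80% made up 58.0% of it in skin, beside 39.3% in the rest of the window and 28.0% on the rest of chromosome 6. In the sarcoid 51.9% were intermediate. The share at 80% or more was 27.5% in skin and 13.6% in sarcoid, and the share at or below 20% was 14.5% and 34.5%. In the rest of the window the share at 80% or more was 31.9% in skin and 36.5% in sarcoid. To relate the difference to the starting level, skin reads of CpGs with at least 20 of them were split at random, with 1 part giving the class and the other the difference. In the stretch, 76 CpGs classed at 60% to 80% differed by -24.0 points and 79 at 40% to 60% by -20.0 points. The 112 classed above 80% differed by -15.0 points, 65 at 20% to 40% by -9.98 and 57 at or below 20% by -2.95. On the rest of chromosome 6 the same classes differed by -4.95, -1.70, -2.68, 0.386 and 0.0231 points. The stretch was lower in all 5 classes, and most so in those from 40% to 80%.

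Either strand gave the same direction. On the plus strand alone 286 CpGs of the stretch had 56.3% in skin and 37.4% in sarcoid (-18.9 points), and on the minus strand alone 286 had 55.2% and 40.6% (-14.6 points). In the rest of the window the strands differed by -0.509 and 1.23 points. Counts of calls were smaller on 1 strand, with 40 members called lower on the plus strand of 535 and 16 on the minus strand of 472. Both strands had 10 reads in both libraries at 135 CpGs of the stretch. The strands lay at least 30 points apart at 21.5% of these in the skin library and at 16.3% in the sarcoid library. In the rest of the window this share was 23.2% in each library, over 69 CpGs. Merged levels at such CpGs average unlike strands.

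CpGs of the window that did not reach 10 reads in both libraries, which the choice of members had left out, stood apart in the same way. In the stretch 105 of these had means of 57.7% in skin and 41.0% in sarcoid, or -16.8 points, with 68 lower, 28 higher and 9 equal. Their median coverage was 11 and 7 reads. In the rest of the window 91 had 77.8% and 75.4% (-2.36 points), with 37 lower and 40 higher. They come from the same 2 libraries, and many lie on fragments that also hold members, so they are not a replicate.

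The megabases around the window differed by less. From 6 to 7 Mb 422 CpGs averaged 44.8% in skin and 43.4% in sarcoid (-1.39 points, counting interval -2.32 to -0.460), with 15 called lower and 13 higher. From 8 to 9 Mb, the most densely covered flank, 1548 CpGs had 25.1% and 24.9% (-0.215 points, -0.598 to 0.168). The megabases from 5 to 6 and from 9 to 10 differed by -0.263 points over 111 CpGs and -2.43 points over 478. The last tested tile before the window, from 6973001, had 68.8% and 68.1%, and the first after it, from 8002001, had 11.9% in skin and 30.6% in sarcoid.

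Among 75 windows of 1 Mb on chromosome 6 with at least 50 CpGs, that from 7000001 had the largest negative difference, for which it had been chosen. The next, from 81000001 to 82000000, differed by -6.89 points, and the median was -1.01. The window also had the largest share of CpGs at a lower level in the sarcoid, at 59.1% beside a median of 37.0%. In share of CpGs called lower it was the 3rd, after the windows from 81000001 (7.93%) and 70000001 (7.85%). It was the 13th highest in skin level, at 53.2% beside a median of 42.1%, the 9th in number of CpGs and the 25th in depth of the sarcoid relative to skin. Among 204 steps of 100 kb on the chromosome with at least 50 CpGs, the 2 steps of the stretch were the lowest, and the lowest other step stood at -12.6 points. In the genome they were the 5th and the 18th lowest of 5130.

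**Figure D4:**
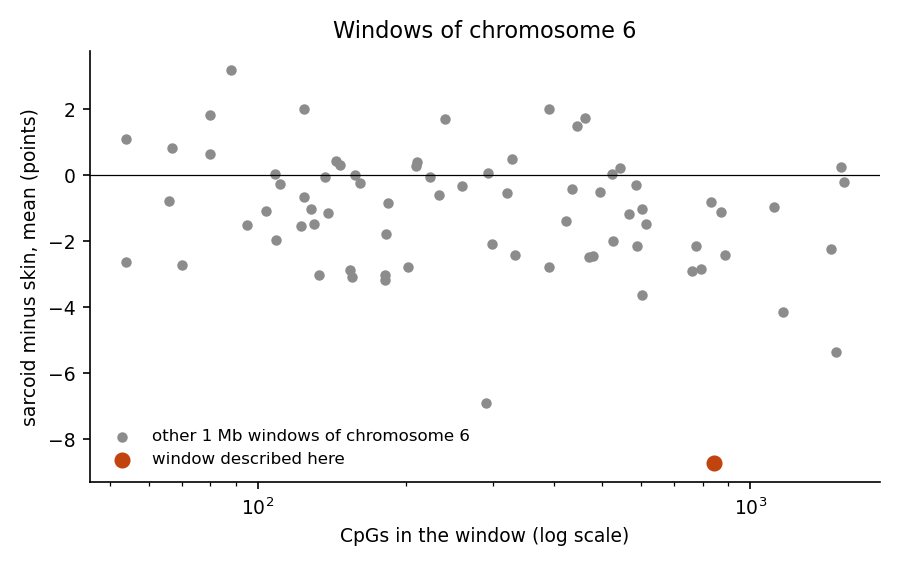
Mean difference of sarcoid minus skin (points, vertical axis) of 75 windows of 1 Mb on chromosome 6 by their number of CpGs (horizontal axis, log scale), with each point 1 window. The window described here, at -8.72 points with 844 CpGs, lies below all others; the next is at -6.89 points.

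Relative to skin, the sarcoid library was deeper on chromosome 6 than over the whole genome. Scaled to the reads of all members of the genome, the log2 of sarcoid over skin reads was 0.33 in the window, 0.30 in the stretch and 0.36 in the rest of the window. On chromosome 6 outside the window it was 0.21, and in the 4 flanking megabases it ranged from 0.12 to 0.22. The step from 7600001, with the largest difference of the well covered steps, had a ratio of 0.21, and the step from 7700001 one of 0.37. The steps before the stretch ranged from -0.25, in that from 7100001, to 0.70, in that from 7300001, and the steps from 7800001 and 7900001 had 0.27 and 0.15. The part of depth in the difference was not tested. Across members the levels of the libraries had a Pearson correlation of 0.73 in the stretch and 0.90 in the rest of the window, beside 0.92 on the rest of the chromosome. These values are over 455, 389 and 29934 CpGs that share libraries and fragments.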

How the data were processed

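The authors deposited, per the file headers, for each library a read count (coverage) of every listed CpG cytosine by strand, with the percent of reads showing C and T to 1 decimal. BSMAP, FastQC and methylKit are named per the submitters' processing notes, and 75 bp single-end reads per the labels' protocols. Settings and the genome build were not given in the sources used here. The authors' table of comparisons, which holds chromosome 1 only, was not used here.

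Methylated reads were coverage times percent of C, rounded, and strands were summed. For 0.567% of the skin cytosines and 0.543% of the sarcoid ones this product missed a whole number by more than 0.0005 of the coverage, and these were kept. CpGs had to reach 10 reads in each library, with no upper limit. CpGs, and 1 kb tiles with at least 3 CpGs, were tested over the genome by two-sided Fisher's exact tests with Benjamini-Hochberg adjustment. The test compares 2 libraries, not conditions. Intervals of means propagate binomial counting error only. Named 1 kb tiles were the 8 lowest and 4 highest and those listing over 20 CpGs. Named 5 kb bins were, of those with at least 5 CpGs, the 4 lowest, 3 highest and 3 with most calls (the third is 1 of 4 with equal counts). Named CpGs were the 4 lowest and 3 highest called and those of named tiles. Others named, such as the tiles of low methylation near the limits of the stretch, were chosen after their values were seen. Members, lists and tests were chosen with earlier results of these data known. Tables were handled in pandas 2.3.3 under Python 3.11.15 with NumPy 2.4.6, the test was written in numba 0.67.0 and checked on simulated data and against SciPy 1.17.1, and plots were drawn with matplotlib 3.10.9.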

Additional observations from a re-analysis of the deposited data

How the results depend on the processing

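No paired analysis was possible because each tissue had 1 library, which also leaves no replicate to omit. The mean difference of the window was negative in all settings run. It was -10.4 points on the plus strand and -9.58 with both strands covered and less than 30 points apart. It was -12.4 with reads pooled in each library, -9.54 over 1 kb tiles and -7.23 over 5 kb bins. Pooled values also reflect coverage of CpGs that is unequal between the libraries. The stretch, whose settings were added after seeing the data, differed by -18.9 points on the plus strand and -14.6 on the minus strand. With reads pooled in each library it differed by -18.9 points. The rest of the window differed by -0.387 points at 20 reads, -0.509 on the plus strand and 3.45 with both strands. It differed by -3.66 points with reads pooled in each library and -0.851 over 5 kb bins. Members called lower numbered 40 on the plus strand, 16 on the minus strand, 27 with both strands and 0 at 10 reads, and those called higher 2, 5, 4 and 0, with fewer CpGs or reads tested in each. At q below 0.05, 14 were called higher. Tiles called higher numbered 0 with at least 5 CpGs, 1 when read sums were scaled for reads spanning several CpGs and 1 at 20 reads. The step from 7100001 differed by 8.50 points on the minus strand, and with both strands those from 7400001 and 7800001 by 2.39 and -0.804 points; the cause was not tested. Of 66 recomputed values of these results and the run of bins, 41 stayed within the counting interval or, for counts, within 1.5 times. These include the setting without the 0.1% of CpGs with most coverage. It removed no member of the window and its values equalled the main ones, so those matches carry no information. Depth limits calls of single CpGs: of 184 members at least 25 points lower, 65 were called.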
